A study of Mus musculus with 4 samples.

Results

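The genes described here encode 10 RNA-binding proteins of the nervous system, found by symbol among the 32285 genes measured. They are the Rbfox splicing factors (Rbfox1, Rbfox2 and Rbfox3), the neuronal Elavl proteins (Elavl2, Elavl3 and Elavl4), the Nova proteins (Nova1 and Nova2) and the polypyrimidine tract-binding proteins Ptbp1 and Ptbp2. All 10 symbols were found, each in 1 row. Their transcripts were counted in single cells of the forebrain of C57BL/6 mice at postnatal day 5, after sorting for tdTomato. The control mice were NestinCreERT2/tdTomato/Chd8+/+ and the mutant mice NestinCreERT2/tdTomato/Chd8+/F, in which Cre deletes a floxed part of 1 allele of *Chd8*, the gene of a chromatin remodeller. All mice carried the tamoxifen-dependent Cre and the tdTomato reporter and were given tamoxifen at a midfetal stage, so that cells active for the Nestin driver at that time, and their descendants, were labelled in both genotypes. Each genotype had 2 libraries, replicates 1 and 2, and each library pooled cells of 3 mice.

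RNA-binding proteins of these families set which exons neuronal transcripts keep and how long the transcripts last. Ptbp1 is found in stem cells, glia and most tissues outside the brain, where it keeps neuronal exons out of mRNA. As cells become neurons, the microRNA miR-124 lowers Ptbp1, and its paralogue Ptbp2 takes over for a time before adult patterns of splicing are set. Rbfox proteins bind UGCAUG and act on exons mostly late in neuronal maturation, and Rbfox3 is the NeuN antigen used to mark neurons. Nova proteins bind YCAY clusters in transcripts of synaptic proteins, and neuronal Elavl proteins, also called Hu proteins, bind U-rich and AU-rich elements and stabilise their targets.

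On GRCm38 (mm10, GENCODE vM21) the Rbfox genes lie with *Rbfox1* at chr16:5885355-7411526 (plus strand), *Rbfox2* at chr15:77078990-77307004 (minus strand) and *Rbfox3* at chr11:118489762-118911597 (minus strand). The Elavl genes lie with *Elavl2* at chr4:91250763-91400785 (minus strand), *Elavl3* at chr9:22015005-22052023 (minus strand) and *Elavl4* at chr4:110203722-110351909 (minus strand). The Nova genes lie with *Nova1* at chr12:46694517-46818929 (minus strand) and *Nova2* at chr7:18925888-18965319 (plus strand), and the Ptbp genes with *Ptbp1* at chr10:79854427-79864771 (plus strand) and *Ptbp2* at chr3:119718742-119784466 (minus strand). Other annotated genes overlap 8 of the 10 on the same strand, all but *Elavl4* and *Nova2*, and reads shared with them cannot be told apart here.

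The link between the Ptbp proteins runs through 1 short exon. Ptbp1 causes *Ptbp2* transcripts to skip this exon, and the frame is then lost. The exon is shown because it is the sequence through which one of these genes acts on the other. In transcript ENSMUST00000029780.11 it is exon 10 of 14, in the coding region, at chr3:119724612-119724645 on the minus strand of GRCm38 (mm10), and its 34 bases leave a remainder of 1 when divided by 3. It is absent from 2 annotated *Ptbp2* transcripts that span it and are marked for nonsense-mediated decay.
Ptbp2 exon 10: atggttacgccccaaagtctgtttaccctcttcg
The libraries count tags near the 3′ ends of transcripts, so inclusion of this exon was not measured.

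The microRNA miR-9, made like miR-124 in neural cells, is encoded at 3 places and the host gene of 1 of them, *Mir9-3hg*, was counted in these cells. Its mature sequence, from RefSeq on GRCm38.p6, is identical at Mir9-1 (chr3:88215613-88215635), Mir9-3 (chr7:79505279-79505301) and Mir9-2 (chr13:83738821-83738843), all on the plus strand. It is shown with its seed in capitals, since the seed sets which transcripts it can pair with.
miR-9-5p: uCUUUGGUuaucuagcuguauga
The 7 bases complementary to the seed, ACCAAAG, were searched on the transcribed strand in the longest annotated 3′ UTR of each gene and were found in 3 of the 10, once each, against 2564 of 21020 genes (12.2%) whose 3′ UTRs have a median length of 961 bases. The 3 UTRs with a match were 1494 to 5172 bases long. The matches, in capitals, lie at chr15:77083669-77083695 (minus strand), chr10:79864007-79864033 (plus strand) and chr3:119719330-119719356 (minus strand), each in the 3′ UTR.
Rbfox2: agacagaattACCAAAGtggatctggt
Ptbp1: aaaattttggACCAAAGtttagctttc
Ptbp2: accaggtgggACCAAAGtttatgtgcc
A match is a run of letters and not a measured site.

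After filtering, 17623 of 27742 barcodes were kept, with 37355364 to 73584401 UMIs (counted molecules) in the kept cells of a library and median counts of 11497 to 11838 UMIs per cell. They fell into 60 clusters and 18 cell types, each named from its markers, with the 10 genes left out of the clustering. The labels call the cells neuronal, but 5160 of them (29.3%) belonged to the neuronal lineages and the others were mostly astrocytes, oligodendrocyte precursor cells (OPCs) and ependymal cells, with microglia and vascular cells. Levels below are in CPM, the UMIs of a gene relative to all UMIs of a cell type in a library, on the usual CPM scale. Levels of different genes are not compared with each other, since they were not set per length.

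Replicates 1 and 2 were processed with different Cell Ranger versions, 7.0.0 and 5.0.1 by the file headers, and their levels of some of the 10 genes stood far apart. The median over cell types of the log2 level in replicate 2 over replicate 1 was −5.09 in controls and −4.71 in mutants for *Rbfox1*, which has 1521772 intronic bases. It was −1.3 and −1.50 for *Nova1* and −1.28 and −1.18 for *Rbfox2*, with 115666 and 219875 intronic bases, and 0.26 and 0.70 for *Ptbp1*, which has 5605. The differences did not follow the order of intron lengths, since *Rbfox3*, with 416018 intronic bases, was at −0.50 and −0.57, *Elavl4*, with 142801, at −0.55 and −0.43, and *Elavl2*, with 141710, at −0.26 and −0.05. The part of introns in these differences was not tested. *Xist*, which is transcribed from the inactive X chromosome of female cells, also separated the replicates, at 0.149 and 0.153 CPM in replicate 1 and 1633 and 1749 CPM in replicate 2. The study states that male mice were used for single-cell sequencing, and the *Xist* levels of replicate 2 go against this. The mean ± SD of *Rbfox1*, *Rbfox2* and *Nova1* therefore mixes 2 scales, and changes are given within libraries or within replicates. The count of *Chd8* was not lower in mutants (61.7 and 89.8 CPM in controls, 68.7 and 94.9 in mutants), and 3′ counts lie outside the deleted exons, so they check neither label.

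Most of the 10 genes were highest in cells of the neuronal lineages, but at different points in them. *Rbfox1* was highest in excitatory neurons in all 4 libraries, at 4387 and 4081 CPM in control and mutant of replicate 1 and 159 and 209 CPM in replicate 2. OPCs held 537 and 636 CPM in replicate 1 but 9.96 and 7.45 CPM in replicate 2. Fibroblasts held 388 and 226 CPM in replicate 1, close to the 459 and 339 CPM of inhibitory neurons, and 4.42 and 8.86 CPM in replicate 2, from only 1 and 3 UMIs. Stem-like cells held only 13.4 and 21.5 CPM in replicate 1, so the fibroblast level is not a floor shared by all types. Its source was not tested, and levels of this size in other types are read with caution. *Rbfox2* was at 513, 508, 367 and 435 CPM in inhibitory neurons (in the order control and mutant of replicate 1, control and mutant of replicate 2, used throughout) and at 538, 512, 358 and 388 CPM in excitatory neurons. These types did not differ beyond their spread, and the next, excitatory precursors, lay below both at 288 ± 52.4 CPM (SD, n = 4).

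*Rbfox3* had the sharpest boundary of the family. It stood at 283, 292, 238 and 271 CPM in excitatory precursors and at 248, 327, 187 and 239 CPM in excitatory neurons. Inhibitory neurons held 36.7, 28.9, 24.2 and 17.9 CPM, with no overlap with either. These values pool inhibitory clusters that differ, as given below. In the other 15 types the mean was 13.3 CPM or less. OPCs, at 13.3 ± 4.42 CPM from 143, 158, 37 and 43 UMIs, lay within the range of microglia, at 12.4 ± 9.39 CPM (SD, n = 4). The microglial values were 1.98, 24.6, 9.76 and 13.3 CPM from only 4, 17, 2 and 4 UMIs. Astrocytes and fibroblasts had lower means, 1.32 and 1.21 CPM, so no single background level was set.

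The Elavl genes peaked early in the excitatory lineage, except *Elavl3*. *Elavl2* was highest in excitatory precursors at 593, 524, 499 and 527 CPM, above every value of the next type, excitatory neurons at 241 ± 30.6 CPM (SD, n = 4). *Elavl4* was at 396, 399.8, 289 and 349 CPM in the same precursors and at 369, 363, 310.0 and 364 CPM in inhibitory neuron progenitors, and these overlapped. Below them came inhibitory neurons at 196 ± 10.9 CPM, OPCs at 113 ± 26.7 CPM and excitatory neurons at 91.7 ± 41.1 CPM, the last 2 overlapping. *Elavl3* was highest in inhibitory neurons at 566, 561, 625 and 947 CPM. Excitatory neurons at 568 ± 133 CPM, oligodendrocytes at 459 ± 78.0 CPM, inhibitory neuron progenitors at 424 ± 65.0 CPM and excitatory precursors at 389.6 ± 107 CPM followed, each overlapping the next. In fibroblasts the means of *Elavl2*, *Elavl3* and *Elavl4* were 2.87, 11.6 and 3.49 CPM.

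The Nova genes went to different cells. *Nova1* was highest in OPCs at 339, 365, 126 and 114 CPM, with dividing OPCs at 194 ± 103 CPM and committed OPCs at 194 ± 87.2 CPM overlapping them. It was low in inhibitory neurons, at 47.9, 41.3, 20.5 and 18.5 CPM. *Nova2* was highest in excitatory neurons at 143, 142, 130.4 and 166 CPM, followed by inhibitory neurons at 119 ± 25.1 CPM, which overlapped them. OPCs at 78.7 ± 9.56 CPM and endothelial cells at 78.7 ± 11.9 CPM came next, and fibroblasts held 1.80 ± 1.28 CPM (SD, n = 4 throughout).

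In both types of neurons the mean of *Ptbp1* was at its lowest and that of *Ptbp2* at its highest. *Ptbp1* was highest in ependymal cells at 123, 116, 144 and 154 CPM, and endothelial cells, pericytes, border macrophages, microglia and fibroblasts followed with means of 89.5 to 131 CPM. Inhibitory neuron progenitors at 88.6 ± 26.5 CPM, astrocyte progenitors at 79.4 ± 5.05 CPM and excitatory precursors at 70.3 ± 15.5 CPM overlapped them. The lowest levels were in astrocytes, inhibitory neurons and excitatory neurons, at 29.9 ± 8.03, 29.7 ± 3.71 and 22.7 ± 11.5 CPM. *Ptbp2* was highest in excitatory neurons at 399, 386, 298 and 217 CPM and inhibitory neurons at 386, 362, 295 and 238 CPM. It was nearly as high in inhibitory neuron progenitors, at 299 ± 52.9 CPM, and excitatory precursors, at 285 ± 70.7 CPM. Of the types with at least 20 cells in every library, fibroblasts had the least, 71.4 ± 21.6 CPM (SD, n = 4 throughout).

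**Figure D1:**
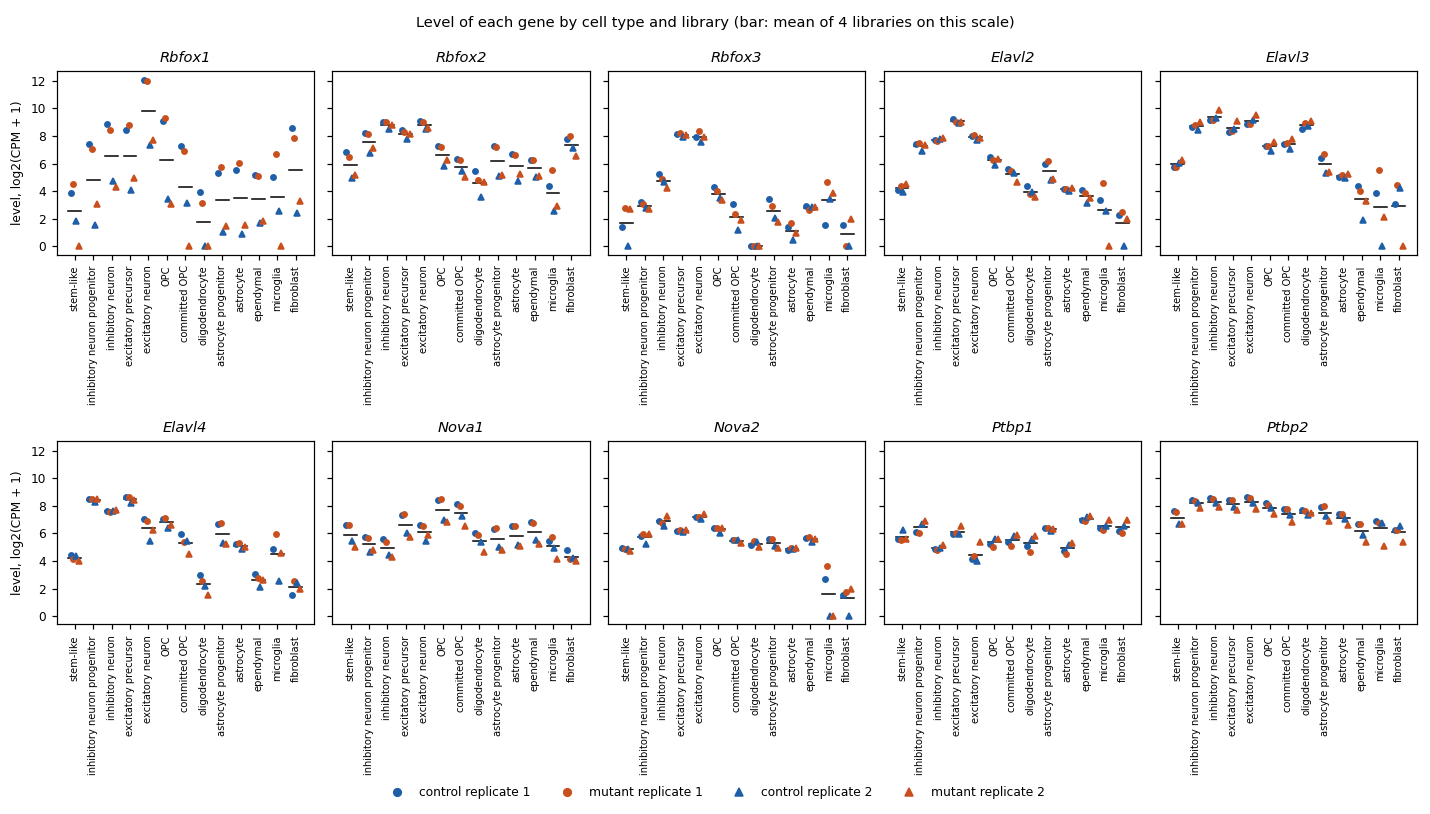
Level of each of the 10 genes (1 panel each, log2 of CPM + 1 on the vertical axis) in 13 cell types, with 1 point per library (4 per type) coloured by genotype and shaped by replicate. Rbfox3 stands high in excitatory precursors and neurons alone, Ptbp1 lowest in neurons and astrocytes, and the 2 replicates lie far apart for Rbfox1.

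The first question was which of the 10 genes change as dividing inhibitory neuron progenitors give way to inhibitory neurons. The cells were compared as groups present at 1 age, not followed in time. Of the 10 genes, 8 passed the test, 6 higher and 2 lower in neurons, against 61.4% of all genes tested (35.6% higher and 25.8% lower). Their median log2 change was 0.52, beside 0.12 over all genes. A share of this size among 10 genes is not far from the background, so the single genes carry the result.

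*Ptbp1*, the splicing repressor of progenitors, went from 68.0, 65.2, 101 and 119.7 CPM in progenitors to 27.6, 27.1, 29.1 and 35.1 CPM in neurons, with no overlap. It fell by 1.40 ± 0.12 on the log2 scale (SE; adjusted p = 5.68e-08, edgeR's quasi-likelihood test with the library as a block). *Ptbp2* did not pass, at 0.11 ± 0.07 (adjusted p = 0.145), and its values overlapped. Thus the change in this pair lay in *Ptbp1*.

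The Rbfox genes rose together in this step. *Rbfox3* went from 8.13, 7.4, 5.96 and 5.39 CPM to 36.7, 28.9, 24.2 and 17.9 CPM, a log2 change of 2.02 ± 0.16 (SE, adjusted p = 2.60e-08, edgeR). The progenitor values lie below the microglial mean of 12.4 CPM, so this change starts from a low level. *Rbfox2* went from 302, 285, 108 and 142 CPM to 513, 508, 367 and 435 CPM, and its log2 change was 1.11 ± 0.11 (adjusted p = 2.17e-07, edgeR). *Rbfox1* rose by 1.47 ± 0.10 (adjusted p = 3.26e-09, edgeR), with library changes of 1.40, 1.35, 3.41 and 1.21. The third of these rests on 1.99 CPM in the progenitors of control replicate 2, and in replicate 1 *Rbfox1* in these neurons lies near the level of fibroblasts.

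The neuronal Elavl genes split. *Elavl2* and *Elavl3* rose by 0.41 ± 0.07 and 0.62 ± 0.06 (SE; adjusted p = 1.65e-04 and 6.31e-07, edgeR), whereas *Elavl4* went from 369, 363, 310.0 and 364 CPM down to 192, 186, 195 and 211 CPM and fell by 0.85 ± 0.06 (adjusted p = 4.75e-09, edgeR), with no overlap between the types. *Nova2* rose by 1.11 ± 0.09 (adjusted p = 3.06e-08, edgeR), from 53.1 ± 11.9 to 119 ± 25.1 CPM, and *Nova1* was at 38.7 ± 14.9 and 32.0 ± 14.8 CPM (log2 change −0.20 ± 0.11, adjusted p = 0.132, edgeR). When cells were clustered without centring each gene within its library, only *Rbfox3*, *Nova2* and *Ptbp1* still passed, and *Elavl4* then had a log2 change of 0.36 (adjusted p = 0.647, edgeR).

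The same question was asked of excitatory precursors, named from markers that include Eomes, and excitatory neurons. A cluster of 211 among the 748 precursors did not have Eomes among its leading genes. Its mean marker score was 4.49 for precursors and 4.32 for excitatory neurons, so the starting group includes cells close to neurons. Here 9 of the 10 genes passed, 5 higher and 4 lower in neurons, against 46.2% of all genes tested (25.4% higher and 20.8% lower). The median log2 change of the 10 was 0.10, beside 0.05 over all genes.

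*Rbfox1* had the largest change of the 10. It went from 347, 445, 16 and 30.7 CPM in precursors to 4387, 4081, 159 and 209 CPM in neurons, and the log2 change was 3.37 ± 0.13 (SE, adjusted p = 4.29e-11, edgeR), with 3.66, 3.2, 3.30 and 2.76 in the 4 libraries. Within each replicate the types did not overlap. *Rbfox2* rose by 0.71 ± 0.09 (adjusted p = 9.30e-06, edgeR). *Rbfox3* did not pass (−0.06 ± 0.10, adjusted p = 0.682, edgeR), with 1 of 4 libraries higher in neurons.

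*Elavl4* and *Elavl2* fell by 1.86 ± 0.15 and 1.09 ± 0.09 (SE; adjusted p = 5.85e-08 and 1.35e-07, edgeR), while *Elavl3* rose by 0.61 ± 0.08 (adjusted p = 1.53e-05, edgeR). The values of *Elavl4* in neurons were 131, 119, 42.0 and 74.6 CPM and those of *Elavl2* 254, 275, 204 and 229.6 CPM, all below the precursors. *Nova2* went from 71.0, 74.4, 69.1 and 75.7 CPM to 143, 142, 130.4 and 166 CPM (log2 change 1.06 ± 0.09, adjusted p = 2.13e-07, edgeR). *Nova1* fell by 0.51 ± 0.13 (adjusted p = 0.00350, edgeR), with a change of 0.14 in mutant replicate 2.

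*Ptbp1* again fell, by 1.57 ± 0.14 (SE, adjusted p = 2.55e-07, edgeR), from 61.8, 64.4, 61.6 and 93.5 CPM to 16.7, 19.3, 15 and 39.7 CPM. All neurons lay below all precursors, the neurons of mutant replicate 2 being the highest. *Ptbp2* passed narrowly at 0.25 ± 0.09 (adjusted p = 0.0271, edgeR), and this call was lost in each of the 12 alternatives, with adjusted p of 0.0570 to 0.309.

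**Figure D2:**
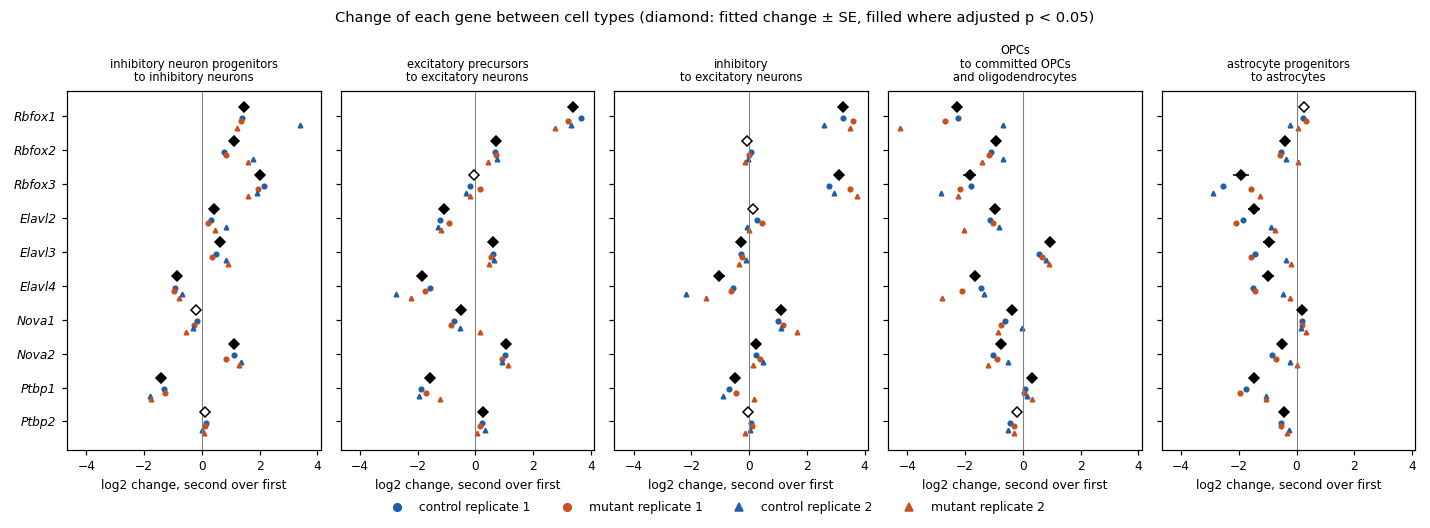
Log2 change of each of the 10 genes (horizontal axis) in 5 comparisons of cell types (panels), with the fitted change ± SE as a diamond, filled where the adjusted p is below 0.05, and the 4 libraries as points. Ptbp1 lies to the left in both neuronal comparisons and in the astrocyte comparison, and Elavl3 to the right in the OPC comparison.

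In both lineages neurons held less *Ptbp1* and *Elavl4* and more *Rbfox1*, *Rbfox2*, *Elavl3* and *Nova2*. Of these genes only *Ptbp1* and *Nova2* still passed in the inhibitory lineage when cells were clustered without centring within libraries. The difference between the 2 lineages was fitted directly, with 4 of the 10 genes passing against 17.6% of all genes tested. Inhibitory progenitors came from dividing clusters alone, whereas excitatory precursors pooled clusters high and low in dividing-cell markers. Lineage and starting stage therefore cannot be told apart in these differences. The log2 change was larger in the excitatory lineage by 1.96 ± 0.22 (SE) for *Rbfox1* (adjusted p = 2.30e-06, edgeR). It was smaller there by 1.94 ± 0.22 for *Rbfox3* (adjusted p = 1.81e-06), by 1.46 ± 0.13 for *Elavl2* (adjusted p = 1.07e-07) and by 0.90 ± 0.20 for *Elavl4* (adjusted p = 0.00246, edgeR throughout). For *Ptbp1* the difference was −0.08 ± 0.18 (adjusted p = 0.828, edgeR) and for *Nova2* 0.01 ± 0.16 (adjusted p = 0.985, edgeR).

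The clusters inside these types give a finer view, as a description with no test. In the excitatory lineage, 4 precursor clusters were set in order of their dividing-cell markers, and the neuron cluster placed after them was led by Neurod1, Cntnap5a and Calb2. *Ptbp1* had mean levels of 94.6, 77.3, 45.0 and 39.0 CPM in the precursor clusters and 18.9 CPM in the neuron cluster. *Elavl4* was at 350.3, 538, 399 and 169 CPM and then 36.0 CPM, and *Elavl2* at 513, 736, 558 and 364 CPM and then 172 CPM, so that both were highest in the second cluster. *Rbfox3* was at 172, 308, 419.7 and 323 CPM and then 314 CPM, and was present while dividing-cell markers were highest. *Rbfox1* was at 32.2, 61.7, 185 and 785 CPM and then 2136 CPM, each cluster above the one before it in the mean.

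Inhibitory clusters gave the same order for *Ptbp1*. It was at 88.8 and 88.4 CPM in the 2 progenitor clusters and at 38.8, 25.3 and 18.9 CPM in 3 neuron clusters, the first led by Dlx6os1, Sp9 and Dlx1 and the last by Epha6, Syt1 and Bcl11b. *Elavl4* was at 262, 158 and 80.2 CPM in the same neuron clusters and *Rbfox3* at 15.8, 19.4 and 41.9 CPM. A further inhibitory cluster led by Galntl6, Reln and Lhx6 held 215, 156, 36.7 and 114 CPM of *Rbfox3*, above the other inhibitory clusters in 3 of the 4 libraries, but had only 17 and 7 cells in replicate 2. Within excitatory neurons the clusters also differed, since the one led by Gm49678, Slc17a6 and Neurod2 kept 212 ± 47.6 CPM of *Elavl4* where the Neurod1 cluster had 36.0 ± 15.5 CPM (SD, n = 4). The first of these made up 50.1% and 33.6% of excitatory neurons in replicate 1 and 19.4% and 17.0% in replicate 2 (14 and 17 cells), so levels over all excitatory neurons mix them in different shares.

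**Figure D3:**
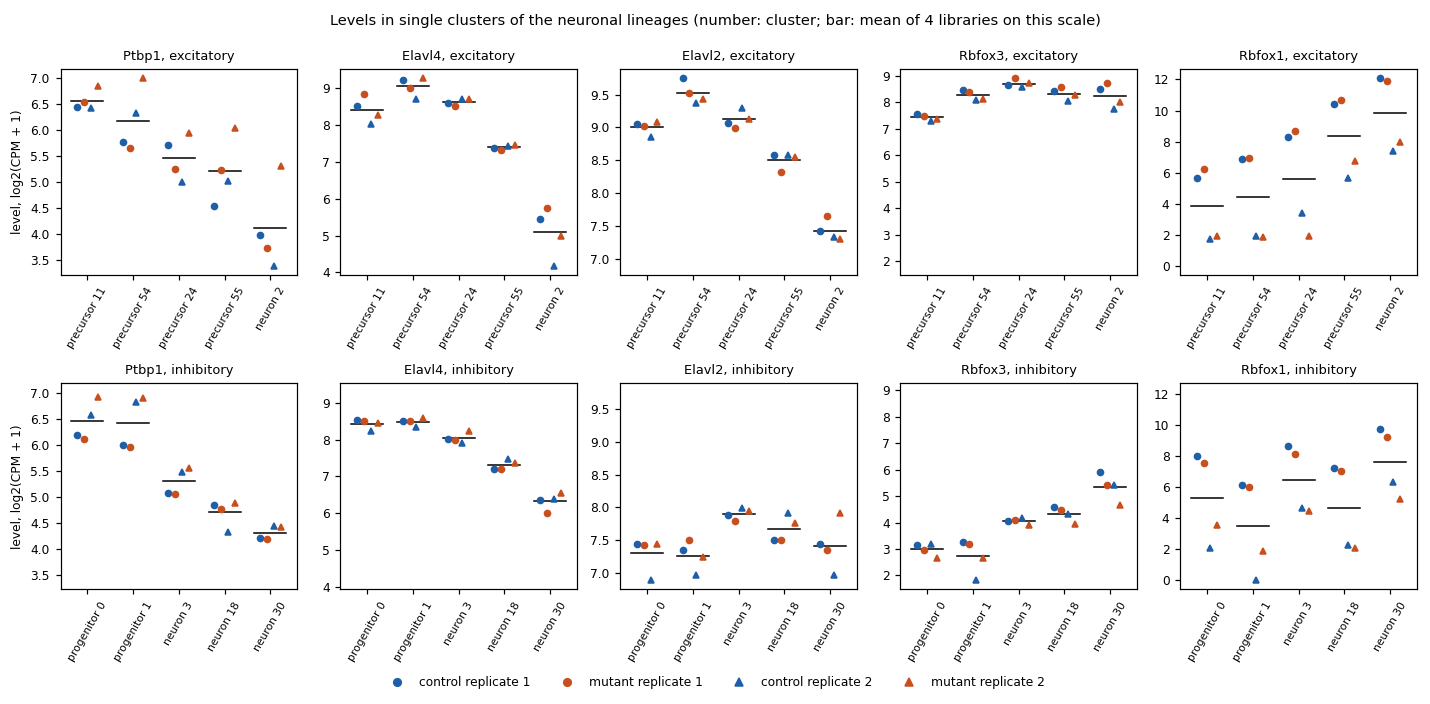
Level (log2 of CPM + 1) of Ptbp1, Elavl4, Elavl2, Rbfox3 and Rbfox1 in single clusters of the excitatory and inhibitory lineages, with the clusters of a type in falling order of dividing-cell marker signal and neurons placed after precursors or progenitors, with 1 point per library and a bar at the mean of the 4. Mean Ptbp1 is lower from cluster to cluster along both orders, Elavl4 and Elavl2 peak in the second excitatory precursor cluster, and Rbfox1 is highest at the excitatory end.

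Inhibitory and excitatory neurons were then compared with each other, using the same neuron counts as above. They were not matched for stage of maturation, so stage and neuron type cannot be told apart in this comparison. Of the 10 genes 7 passed, 4 higher and 3 lower in excitatory neurons, against 37.3% of all genes tested (20.4% higher and 16.8% lower). The log2 changes of *Rbfox3* and *Rbfox1* were 3.11 ± 0.14 and 3.26 ± 0.13 (SE; adjusted p = 1.20e-08 and 3.50e-09, edgeR), both in favour of excitatory neurons in 4 of 4 libraries. *Nova1* was also higher, by 1.10 ± 0.12 (adjusted p = 1.95e-05, edgeR), and *Elavl4* lower, by −1.04 ± 0.19 (adjusted p = 8.79e-04, edgeR). *Nova2* at 0.25 ± 0.09, *Elavl3* at −0.28 ± 0.08 and *Ptbp1* at −0.50 ± 0.18 passed less firmly (adjusted p = 0.0347, 0.0119 and 0.0442, edgeR), and each lost the call with the replicate as a block, where adjusted p was 0.135, 0.0591 and 0.0782. Their calls held in 6, 6 and 5 of 12 alternatives in that order. *Rbfox2*, *Elavl2* and *Ptbp2* did not pass, with changes of −0.06 ± 0.08, 0.15 ± 0.09 and −0.03 ± 0.08.

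The share of cells with a *Rbfox3* UMI gave the same boundary between the pooled types. After each cell was thinned to 2000 UMIs, 40.9% of excitatory precursors (exact 95% interval 37.4 to 44.5) and 36.5% of excitatory neurons (33.1 to 40) had 1, against 5.49% of inhibitory neurons (4.68 to 6.4). Before thinning these shares were 86.1%, 71.3% and 13%, at median depths of 13756, 8973 and 6312 UMIs. In microglia, with a median of 10987 UMIs, the thinned share was 1.16% (0.240 to 3.36), and in 105 fibroblasts it was 0, which allows up to 2.86%. The intervals pool the libraries and cover counting error only. The 2 largest inhibitory clusters, both led by Dlx6os1, held 1207 and 1037 of the 2822 inhibitory neurons. Both had Sp8 among their leading genes, and the second also had Prokr2. The cluster led by Galntl6, Reln and Lhx6 held more *Rbfox3* in most libraries, as given above. The boundary is thus that of the inhibitory neurons sampled.

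The ratio of *Ptbp2* to *Ptbp1* within a cell type joins the pair in 1 value that does not depend on library scaling. It can still differ between replicates. In stem-like cells its log2 was 1.99 and 2.08 in control and mutant of replicate 1, against 0.50 and 1.05 in replicate 2. The means ± SD below include this difference. Its log2 mean was highest in excitatory neurons (3.92 ± 0.98, SD, n = 4) and inhibitory neurons (3.41 ± 0.48), and lower in their progenitors, at 2.01 ± 0.61 and 1.79 ± 0.69. OPCs at 2.56 ± 0.58, dividing OPCs at 2.23 ± 0.51 and astrocytes at 2.22 ± 0.78 lay between neurons and progenitors, and stem-like cells at 1.40 ± 0.76 and astrocyte progenitors at 1.20 ± 0.47 lay below. Only microglia, fibroblasts, pericytes and ependymal cells had a mean below 0, at −0.17 to −0.92, among the 14 types with at least 20 cells in every library.

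**Figure D4:**
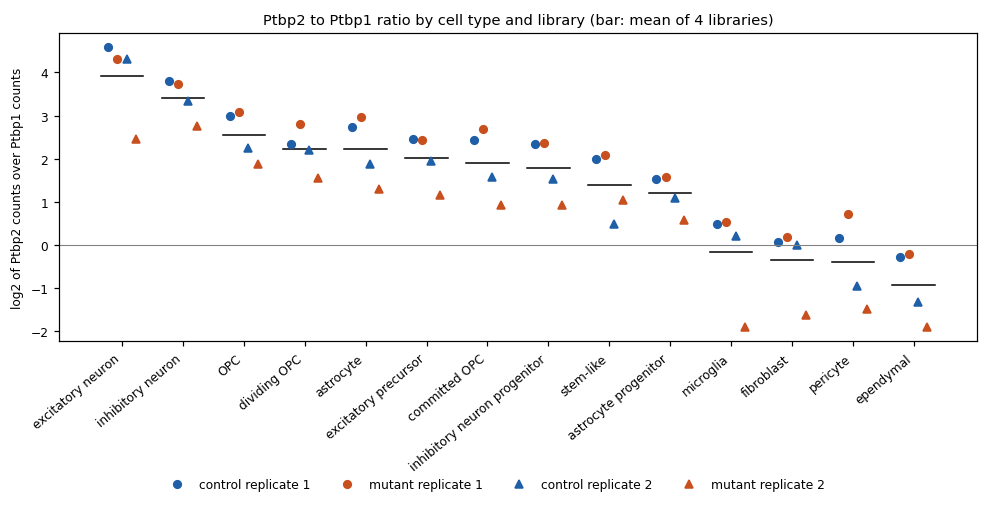
Log2 ratio of Ptbp2 to Ptbp1 counts (vertical axis) in the 14 cell types with at least 20 cells in every library, with 1 point per library and a bar at the mean. Neurons lie highest, ependymal cells lowest, and the mutant of replicate 2 lies below its control in all types but stem-like cells.

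The oligodendrocyte lineage was compared between OPCs and the sum of committed OPCs and oligodendrocytes, with the 614 dividing OPCs left out. Oligodendrocytes had 13 to 45 cells per library, too few in control replicate 2 to stand alone under the minimum of 20, so this pooling was chosen after the cells were counted. Of the 10 genes 9 passed, 2 higher and 7 lower in the later cells, against 56.9% of all genes tested (26.9% higher and 30% lower), and the median log2 change was −0.84, beside −0.03 over all genes. All genes that passed divided into 3362 higher and 3739 lower. Without TMM scaling these were 2127 and 5078, and the median of all genes shifted to −0.23.

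Rbfox genes fell in this lineage. *Rbfox1* fell by 2.27 ± 0.15 (SE, adjusted p = 3.52e-08, edgeR), *Rbfox3* by 1.84 ± 0.22 (1.03e-05) and *Rbfox2* by 0.94 ± 0.10 (2.32e-06), each lower in 4 of 4 libraries. OPCs held 13.3 ± 4.42 CPM of *Rbfox3*, which is within the range of microglia, and the later cells 2.77 ± 1.95 CPM, below the mean of microglia. For *Rbfox1*, OPCs of replicate 2 held 9.96 and 7.45 CPM from 36 and 35 UMIs, beside 4.42 and 8.86 CPM in fibroblasts, which rest on only 1 and 3 UMIs. *Elavl4* and *Elavl2* fell by 1.65 ± 0.15 and 0.98 ± 0.13 (adjusted p = 4.97e-07 and 1.94e-05, edgeR), *Nova2* by 0.74 ± 0.10 (3.50e-05) and *Nova1* by 0.39 ± 0.11 (0.00729). *Ptbp1* rose by 0.32 ± 0.10 (adjusted p = 0.0190, edgeR), a call that held in 7 of 11 alternatives and ended without TMM scaling, where the change was 0.11. *Ptbp2* did not pass (−0.19 ± 0.08, adjusted p = 0.0544, edgeR), but it was lower in 4 of 4 libraries and was called in 3 of 11 alternatives.

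*Elavl3*, a neuronal Elavl gene, went the other way. It was at 153, 153, 121 and 191 CPM in OPCs and at 370.1, 489.7, 427 and 550.4 CPM in oligodendrocytes, with no overlap. Committed OPCs held 169, 183, 133 and 218 CPM, above OPCs within each library but overlapping them across libraries. The highest levels were thus those of the 119 oligodendrocytes. The 514 committed OPCs were not tested alone against OPCs. In the pooled later cells *Elavl3* rose by 0.93 ± 0.09 (SE, adjusted p = 8.76e-07, edgeR). Against oligodendrocytes alone, a comparison added after the data were seen with at least 10 cells per library, 8 of the 10 genes passed against 56.1% of all genes tested, and *Elavl3* rose by 1.83 ± 0.11 (adjusted p = 1.11e-13, edgeR). After thinning, 50.4% of 119 oligodendrocytes (exact 95% interval 41.1 to 59.7) had an *Elavl3* UMI, against 25.3% of OPCs (23.7 to 27.0) and 1.90% of fibroblasts (0.232 to 6.71). Before thinning the shares were 98.3%, 63.9% and 5.71%, at median depths of 23654, 9337 and 13292 UMIs.

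The other neuronal genes fell in the same oligodendrocytes. *Elavl4* was at 6.98, 4.88, 3.62 and 1.85 CPM and fell by 4.27 ± 0.25 on the log2 scale (SE, adjusted p = 7.64e-14, edgeR), and *Rbfox1* fell by 5.44 ± 0.23 (8.27e-17). *Rbfox3* had no UMI in any of the 4 libraries, and its summed level was at least 12.9-fold lower than in OPCs, against a floor of 3 counts over the group. The OPC level of *Rbfox3* is itself low and within the range of microglia. The markers of inhibitory neurons summed to 3.62 to 9.75 CPM in oligodendrocytes and to 59.8 to 216 CPM in OPCs, those of excitatory neurons to 3.62 to 13.7 CPM and 10.2 to 28.8 CPM. The ranges of the excitatory sums overlapped. All 10 inhibitory markers were higher in OPCs in every library. Of the 8 excitatory markers, 8, 7, 5 and 5 were higher in OPCs in the 4 libraries, and 4 in all of them. In oligodendrocytes *Dlx5* and *Sp8* of the inhibitory list had no UMI in any library, nor had *Neurod2*, *Slc17a7*, *Slc17a6* and *Fezf2* of the excitatory list. The source of *Elavl3* in these cells was not tested. *Ptbp1* and *Ptbp2* did not pass here (0.21 ± 0.18 and −0.09 ± 0.12, adjusted p = 0.354 and 0.545, edgeR). Without TMM scaling *Ptbp2* did pass, at −0.37 (adjusted p = 0.00869, edgeR).

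Levels also varied among OPC clusters. The cluster led by Pdgfra, Col19a1 and Lhfpl3 held 784, 820.5, 15.2 and 15.2 CPM of *Rbfox1*, and that led by Col19a1, Lhfpl3 and Tmem132d held 1105, 1179, 20.4 and 20.3 CPM. *Nova1* had mean levels of 226 and 362 CPM in the same order, and *Ptbp1* of 29.4 and 24.2 CPM. The median of UMIs per cell relative to the library median was 0.847 and 0.271 in the same order. Depth and cluster therefore cannot be told apart in these differences. These are levels in clusters and carry no test.

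In the astrocyte lineage, dividing astrocyte progenitors were compared with astrocytes. Of the 10 genes 9 passed, 1 higher and 8 lower in astrocytes, against 60.7% of all genes tested (29.7% higher and 31.0% lower), with a median log2 change of −0.73 beside 0.01 over all genes. *Ptbp1* went from 83.1, 82.6, 72.1 and 79.9 CPM to 25, 21.4, 34.9 and 38.4 CPM and fell by 1.47 ± 0.14 (SE, adjusted p = 6.78e-05, edgeR). *Ptbp2* fell too, by 0.45 ± 0.07 (6.40e-04), lower in 4 of 4 libraries.

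The neuronal Elavl genes fell by 1.48 ± 0.21 (*Elavl2*), 0.96 ± 0.21 (*Elavl3*) and 0.99 ± 0.20 (*Elavl4*; adjusted p = 4.71e-04, 0.00476 and 0.00285, edgeR). Their changes were larger in replicate 1, at −1.86 and −2.11 for *Elavl2* against −0.88 and −0.74 in replicate 2, and at −1.43 and −1.56 for *Elavl3* against −0.37 and −0.19. The 10 inhibitory neuron markers, summed over the list, stood at 394 and 488 CPM in the progenitors of replicate 1, at 124 and 91.7 CPM in those of replicate 2, and at 83.1 to 110 CPM in astrocytes. All 10 were higher in the progenitors than in the astrocytes of both libraries of replicate 1, 6 and 7 of them in replicate 2, and none was at 0 in every library. Their part in the fall was not tested. *Rbfox3* fell by 1.93 ± 0.27 (adjusted p = 4.14e-04, edgeR) from 5.51 ± 3.43 CPM, which is within the range of microglia, *Nova2* by 0.50 ± 0.13 (0.0102) and *Rbfox2* by 0.41 ± 0.10 (0.00611). *Nova1* rose by 0.19 ± 0.07 (adjusted p = 0.0338, edgeR), a call that held in only 3 of 12 alternatives and was lost with the replicate as a block (0.0791). *Rbfox1* did not pass (0.25 ± 0.10, adjusted p = 0.0571).

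The 2 glial lineages differed in 6 of the 10 genes when the difference of their changes was fitted, against 58.9% of all genes tested. The astrocyte comparison starts from dividing cells and the oligodendrocyte comparison does not, so lineage and leaving the cell cycle cannot be told apart here. *Ptbp1* and *Elavl3* changed more upward in the oligodendrocyte lineage, by 1.74 ± 0.19 and 1.90 ± 0.29 (SE; adjusted p = 9.63e-07 and 3.67e-05, edgeR). *Rbfox1*, *Elavl4*, *Rbfox2* and *Nova1* changed more downward there, by −2.50 ± 0.30, −0.73 ± 0.28, −0.63 ± 0.22 and −0.62 ± 0.14 (adjusted p = 2.06e-06, 0.0354, 0.0190 and 0.00124, edgeR). *Ptbp2*, *Elavl2* and *Nova2* did not pass, with differences of 0.21 ± 0.11, 0.41 ± 0.27 and −0.29 ± 0.17, and *Nova2* passed without TMM scaling (−0.48, adjusted p = 0.0312, edgeR). *Rbfox3* did not pass either, at −0.10 (adjusted p = 0.988, edgeR). Its SE is not given, since SEs were derived from the F statistic and are unreliable where that is very small.

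Other RNA-binding genes were taken from lists of families. Over all genes tested, 35.6% rose and 25.8% fell in the inhibitory lineage, 25.4% and 20.8% in the excitatory lineage, 26.9% and 30% in the oligodendrocyte lineage and 29.7% and 31.0% in astrocytes, and the counts below stand beside these shares. Of 25 hnRNP genes, which encode abundant nuclear RNA-binding proteins, 23 fell and 1 rose from inhibitory progenitors to neurons, 19 fell and 2 rose in the excitatory lineage, and 25 fell in astrocytes, whereas 4 fell and 7 rose in the oligodendrocyte lineage. Their median log2 changes were −0.54, −0.42, −0.93 and 0.06 in that order, and without TMM scaling the oligodendrocyte lineage turned to 12 that fell and 5 that rose (median −0.15). The OPCs of this lineage were not dividing, unlike the inhibitory and astrocyte progenitors, so these counts do not compare like stages. *Hnrnpa3* went from a mean of 1042 to 524 CPM in the inhibitory lineage (log2 change −0.99 ± 0.05, SE) and from 799 to 398 CPM in the excitatory one (−0.94 ± 0.08). Of 13 SR protein genes, which mostly promote exon inclusion, 9 fell and 2 rose in the inhibitory lineage, 9 fell and 1 rose in the excitatory lineage, 11 fell and 1 rose in astrocytes, and 3 fell and 4 rose in the oligodendrocyte lineage, where 6 fell and 1 rose without TMM scaling. *Srsf9* changed by −1.19 ± 0.08 and −0.80 ± 0.12 in the inhibitory and excitatory lineages.

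Among 24 other splicing regulators, of which 23 were in the files and 19 or 20 were tested in each comparison, both directions were common. In the inhibitory lineage 9 rose and 6 fell, in the excitatory lineage 9 rose and 5 fell, in the oligodendrocyte lineage 2 rose and 12 fell, and in astrocytes 5 rose and 10 fell. The Celf genes, whose products act on splicing and mRNA stability, were among those that rose in neurons, with *Celf4* at 1.54 ± 0.07 and 1.87 ± 0.11 and *Celf5* at 2.50 ± 0.14 in the inhibitory lineage. *Khdrbs2*, which encodes the STAR protein Slm1, rose by 1.57 ± 0.13 and 1.92 ± 0.19 (SE). In the oligodendrocyte lineage *Qk*, the gene of the quaking protein that myelinating cells need, rose by 1.36 ± 0.07 from 1636 to 3666 CPM, while *Celf3* and *Srrm4*, which acts on neuronal microexons, fell by 2.45 ± 0.19 and 2.31 ± 0.23.

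Of 20 RNA-binding regulators of translation and transport, 15 to 18 were tested in each comparison. In these, 4 rose and 5 fell in the inhibitory lineage, 2 rose and 1 fell of 15 in the excitatory lineage, 6 rose and 5 fell in the oligodendrocyte lineage (4 and 8 without TMM scaling) and 4 rose and 10 fell in astrocytes. The share in the excitatory lineage lay below that over all genes. *Cpeb3*, which binds cytoplasmic polyadenylation elements, rose by 1.74 ± 0.11, 1.36 ± 0.14 and 1.38 ± 0.10 (SE) in the inhibitory, excitatory and astrocyte lineages. *Stau2*, which carries RNA into dendrites, rose by 0.74 ± 0.09 and 1.10 ± 0.11 in the neuronal lineages. *Msi2*, a Musashi protein of stem cells, fell by 0.49 ± 0.06 and 0.78 ± 0.09 there. Between inhibitory and excitatory neurons, where 20.4% of all genes tested rose and 16.8% fell, 0 hnRNP genes rose and 14 fell, 1 SR gene rose and 6 fell, 7 of the other splicing regulators rose and 5 fell, and 1 regulator of translation rose and 5 fell.

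The list of regulators of *Ptbp1* held 4 genes, the host genes of miR-124 and miR-9 and *Rest*, a repressor of neuronal genes that include those of miR-124. In the inhibitory lineage 3 rose and 0 fell. *Mir124a-1hg* went from 23.8, 24.1, 34.8 and 32.3 CPM to 55.4, 63.7, 83.7 and 75.0 CPM (log2 change 1.3 ± 0.10, SE, adjusted p = 3.06e-08, edgeR), with no overlap, and *Mir124-2hg* rose by 0.32 ± 0.09. The third that rose was *Rest* itself, from a mean of 2.44 to 7.24 CPM (log2 change 1.3 ± 0.28, adjusted p = 9.11e-04, edgeR). In the excitatory lineage 2 rose and 1 fell. There *Mir124-2hg* went from 4.47, 5.88, 2.82 and 2.97 CPM to 48.0, 28.3, 28.5 and 26.2 CPM, a log2 change of 2.83 ± 0.22 (adjusted p = 4.81e-08, edgeR), and *Mir9-3hg* fell by 0.79 ± 0.13. In the oligodendrocyte lineage 1 rose and 3 fell, with *Mir124-2hg* at −2.69 ± 0.27 and *Mir9-3hg* at −2.05 ± 0.12. In astrocytes 2 rose and 0 fell, *Mir9-3hg* by 0.59 ± 0.07 and *Rest* by 0.35 ± 0.11, and *Mir124-2hg* stood at 23.1 ± 4.8 CPM beside 113 ± 9.47 CPM in inhibitory neurons (SD, n = 4). Between inhibitory and excitatory neurons 1 rose and 3 fell. Host gene counts are not counts of mature microRNAs, which were not measured here.

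Genotype was compared within each of the 14 cell types. Of 125 tests of the 10 genes that passed the filter on low counts, 0 were called and 0 had an unadjusted p below 0.05 with edgeR, and 0 were called with DESeq2 or any other alternative. Over all genes 0% of 159549 tests were called. The adjusted p of the 10 genes was 0.998 to 1, and the median SE was 0.43 on the log2 scale. Without a block the distance between the replicates stays in the error, so 0 calls in that fit say little about whether the genes differ. With the replicate as a block the median SE was 0.19, 0 of the 125 tests were called against 0.0921% of all tests, and 9 had an unadjusted p below 0.05 against 4.13% of all tests. The sign of the difference was the same in both replicates in 64 of 125 tests.

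*Rbfox1* accounted for 5 of these 9. Mutant over control, it differed by 0.51 and 1.02 on the log2 scale in astrocytes of replicates 1 and 2 (0.59 ± 0.19, SE, adjusted p = 1, edgeR with the block), by 0.36 and 0.93 in excitatory precursors (0.53 ± 0.19, adjusted p = 0.433, edgeR) and by 0.45 and 0.68 in dividing OPCs. In inhibitory neurons it was lower in mutants, by −0.44 and −0.49 (−0.47 ± 0.17, adjusted p = 0.946, edgeR), and in microglia the replicates disagreed, at 1.67 and −2.14. The astrocyte levels, 46.5, 66.2, 0.896 and 1.86 CPM, lie below those of fibroblasts in every library, though the fibroblasts of replicate 2 had only 1 and 3 UMIs. The other 4 were *Elavl4* in committed OPCs (−0.64 and −0.98) and microglia (1.14 and 1.77), *Rbfox3* in excitatory neurons (0.40 and 0.35) and *Elavl3* in committed OPCs (0.11 and 0.71). None passed the adjustment for all genes.

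*Ptbp2* gave the most even pattern by sign, in 1 replicate. In replicate 2 it was lower in the mutant than in the control in all 14 types, by −1.65 to −0.05 with a median of −0.39, and in replicate 1 the differences were −0.15 to 0.14 with a median of −0.01. Of 4789 genes tested in every type, 215 (4.49%) were likewise lower in the mutant of replicate 2 in all 14 types, and 105 were in replicate 1. The cell types of 1 library share its preparation and are not replicates.

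The ratio of *Ptbp2* to *Ptbp1* had the same form. In inhibitory neurons it was 3.81 and 3.34 in controls and 3.74 and 2.76 in mutants, a mean difference of −0.32, with −0.06 within replicate 1 and −0.58 within replicate 2. In excitatory neurons it was 4.58 and 4.31 in controls and 4.32 and 2.45 in mutants, a difference of −1.06, with −0.26 and −1.86. The last rests on 41 *Ptbp1* UMIs in the mutant and 10 in the control of replicate 2. Both gave p = 0.667 in a two-sided exact permutation test over the 6 assignments of 4 libraries, in which 0.33 is the smallest p possible.

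**Figure D5:**
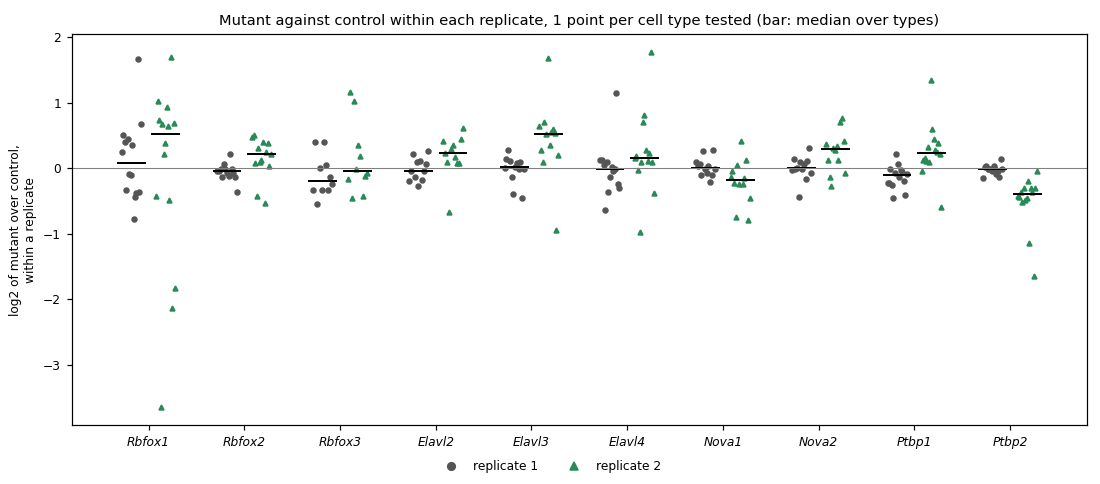
Log2 level in the mutant over the control of the same replicate (vertical axis) for each of the 10 genes, with 1 point per cell type, separately for replicates 1 and 2, and bars at the medians. Replicate 1 lies close to 0 for most genes, and in replicate 2 Ptbp2 lies below 0 in all 14 types.

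For each of the genes other than *Rbfox1*, the genes with the most similar pattern over the 18 types were ranked by Pearson's r of the mean log2(CPM + 1), over 8849 genes. These values describe patterns over types that share libraries and depth, and carry no test. *Ptbp2* was closest to *Tia1* (0.978), *Spast* (0.976) and *Cpsf6* (0.975), and *Elavl3* to *Cpsf6* (0.965), *Spast* (0.957) and *Hist3h2ba* (0.956). *Rbfox3* was closest to *Hecw1* (0.913), *Sstr2* (0.889) and the excitatory factor *Neurod1* (0.888), and *Rbfox2* to *Spin1* (0.956), *2700081O15Rik* (0.928) and *Zfp637* (0.927). *Elavl2* was closest to *Xpo7* (0.956), *Rufy3* (0.955) and *Matr3* (0.952), and *Elavl4* to *Nol4* (0.938), *Apex1* (0.927) and *Dcc* (0.924). *Nova1* was closest to *Crls1* (0.918), *Nlgn1* (0.888) and *Pcsk1n* (0.884), *Nova2* to *Rnf20* (0.932), *Dpf1* (0.931) and *Tnks* (0.922), and *Ptbp1* to *Msl3* (0.869), *Clic1* (0.868) and *Msn* (0.844).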

How the data were processed

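The authors aligned reads of 4 Chromium Single Cell 3′ v3.1 libraries to mm10 with Cell Ranger and deposited raw UMI counts for every gene and barcode of a library. The file headers name version 7.0.0 for replicate 1 and 5.0.1 for replicate 2, and the submitters' processing notes name 3.0. Groups and replicate numbers came from the labels.

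The filter on cells asked for 2000 to 40000 UMIs, 1000 genes and mitochondrial counts of 10% or less. Log-normalized values of 2000 variable genes, without the 10 genes and the listed families, were scaled library by library and clustered with scanpy 1.11.5 on 30 components. Clusters were named from marker lists, so names may differ from those of the study. Libraries shared 2 to 15 barcodes. Doublets were kept, and Scrublet, an alternative, marked 2.50% and 2.60% of cells in replicate 1 but 0.471% and 0.0914% in replicate 2, where it did not work.

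Counts were summed per type and library where every library had 20 cells or more. Tests used edgeR 4.0.16 (R 4.3.3, quasi-likelihood, prior count 2) after filterByExpr and TMM scaling, with the library as a block between types and genotype as the only term within a type. P-values were adjusted by Benjamini-Hochberg over all genes of a fit. The SE of a fitted change is its absolute value divided by the square root of its F statistic. Between types, p-values measure how evenly the change within a library repeats over the 4 libraries. Within a type, they measure the spread between libraries, which includes the distance between the replicates. The scripts were tested on simulated data. Exact Clopper-Pearson intervals are at 95%.

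The 10 genes were named in every comparison. Of the other lists, up to 3 genes per direction with the largest called change and the same sign in all 4 libraries could be named, as could the 3 genes most correlated with each of the 10. The members and lists were chosen with earlier results of these data known, and the clusters and other levels set out singly were chosen after their values were seen. Alternatives were DESeq2 1.42.0, no TMM scaling, other count filters, a replicate block, a mitochondrial limit of 5%, doublets removed, all variable genes, no centring, and each library left out. miR-124 and protein sequences were not used here, and the genes most correlated with *Rbfox1* and 1 OPC cluster are not reported here.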

Additional observations from a re-analysis of the deposited data

Results flagged for a closer look

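The changes of 10 gene and lineage pairs differed between lineages by a test of the difference itself, fitted after the data were seen over both lineages at once (edgeR, adjusted over all genes). Over all genes tested, 17.6% passed this test between the neuronal lineages and 58.9% between the glial lineages. The share of the members that passed between the glial lineages was near that over all genes. Between the neuronal lineages, the log2 change from excitatory precursors to excitatory neurons less that from inhibitory progenitors to inhibitory neurons was 1.96 for *Rbfox1*, which rose in both lineages. It was −1.94 for *Rbfox3*, which passed in the inhibitory lineage alone and whose levels in excitatory precursors and excitatory neurons overlapped. It was −1.46 for *Elavl2*, which rose in one lineage and fell in the other, and −0.90 for *Elavl4*, which fell in both. Without centring within libraries the inhibitory changes of *Rbfox1*, *Elavl2* and *Elavl4* did not pass, and that of *Elavl4* changed direction.

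Between the glial lineages, the change from OPCs to committed OPCs and oligodendrocytes less that from astrocyte progenitors to astrocytes was −2.50 for *Rbfox1*, −0.63 for *Rbfox2* and −0.73 for *Elavl4*. It was 1.90 for *Elavl3*, which rose in the oligodendrocyte lineage and fell in astrocytes, and 1.74 for *Ptbp1*, which fell in astrocytes. It was −0.62 for *Nova1*, whose own changes were −0.39 and 0.19. All 10 kept their sign and an adjusted p below 0.05 without TMM scaling. In neither pair of lineages were the starting cells matched in dividing-cell markers, so stage and lineage cannot be told apart in these differences.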

How the results depend on the processing

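The counts of genes called among the 10 held within 1.5 times in most alternatives. Clustering without centring within libraries lowered the count for inhibitory progenitors to inhibitory neurons from 8 to 3, and a replicate block with genotype in place of the library lowered that between inhibitory and excitatory neurons from 7 to 4. The cause was not tested. With 1 library left out, each remaining library holding both cell types, the counts were 8 to 9 (inhibitory lineage), 7 to 8 (excitatory lineage), 4 to 7 (inhibitory against excitatory neurons, 4 without either library of replicate 1), 8 to 9 (oligodendrocyte lineage), 7 to 9 (astrocyte lineage) and 8 to 8 (oligodendrocytes alone). For genotype, 0 of the 10 genes were called in any alternative, while calls over all genes rose from 0 to 147 with the replicate block, to 147 with no filter on low counts, to 1 with DESeq2, and to 2 to 61 with 1 library left out (2 without control replicate 2, 61 without mutant replicate 1).

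Of 663 values of single genes under alternatives, 581 kept direction and call, 56 lost the call, 12 gained one and 14 changed direction, 13 of these from a change that was not called. *Elavl4* in the inhibitory lineage was at 0.36 without centring. *Ptbp2* there was at −0.02 with doublets removed. *Rbfox3* in the excitatory lineage was at 0.20 with the mitochondrial limit, 0.17 with doublets removed, 0.17 with all variable genes and 0.06 without centring. Between inhibitory and excitatory neurons, *Rbfox2* was at 0.02, 0.16, 0.08 and 0.18 under the same 4, and *Ptbp2* at 0.02 without TMM scaling and 0.06 without centring. Against oligodendrocytes alone, *Ptbp1* was at −0.07 without TMM scaling and *Ptbp2*, at −0.09 with all libraries, ranged from −0.24 to 0.01 with 1 left out (0.01 without control replicate 1). The mutant minus control difference of the log2 *Ptbp2* to *Ptbp1* ratio ranged from −0.81 to 0.17 (inhibitory neurons) and from −2.0 to −0.13 (excitatory neurons) with 1 library left out, and was −0.39 and −1.39 without centring, each at p = 0.33 in the exact permutation test.

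Same-numbered libraries of the 2 genotypes deviated together in every type tested (r of 0.499 to 0.894), but 2 pairs do not show pairing. The oligodendrocyte lineage was not run at the mitochondrial limit, which left too few cells. Type totals of 204920 to 19716631 UMIs limit what fibroblasts, microglia and other sparse types can show. The counts in the lists of other RNA-binding genes without TMM scaling were added after the data were seen.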

Other observations

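Cell types outside the 2 neuronal lineages and the glial comparisons held some of the 10 genes. Endothelial cells, 10 to 68 per library, had 82.2, 92.6, 64.2 and 75.8 CPM of *Nova2*, at the level of OPCs and above fibroblasts (1.80 ± 1.28 CPM, SD, n = 4), and 208, 86.3, 117 and 113 CPM of *Ptbp1*. Pericytes held 153 ± 57 CPM of *Rbfox2* and 11.5 ± 3.32 CPM of *Nova2*. Ependymal cells combined the highest *Ptbp1* with 75.5 ± 40 CPM of *Nova1* and 47.9 ± 5.56 CPM of *Nova2*, while their *Elavl2*, *Elavl3* and *Elavl4* means were 11.9, 11.8 and 5.41 CPM. Stem-like cells, marked by Veph1 and Sfrp1, held 61.2 ± 10.0 CPM of *Elavl3* and 18.2 ± 3.42 CPM of *Elavl2*. These levels were chosen after they were seen and carry no test.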
